A study of Rattus norvegicus with 17 samples.

Results

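The comparison was of the meibomian gland (MG) of UVB P1.hMR rats with that of UVB WT rats, that is, of the transgene among animals that had all been irradiated. It rested on 8 of the 17 rats of the series, 5 UVB P1.hMR and 3 UVB WT rats, chosen by their labels. P1.hMR rats carry the human mineralocorticoid receptor (MR) gene, NR3C2, on a Sprague-Dawley background. All rats were females aged 10 to 12 weeks, and UVB was applied to the eyelids of the UVB groups for 5 days before the MG was dissected. The 5 Control P1.hMR and 4 Control WT rats of the same age and sex were not irradiated and served as the background of the genotype comparison. The transgene is driven by the proximal P1 promoter of NR3C2, which is active in every tissue that expresses MR, so expression in these rats is not limited to the gland. Per the study's reporting summary, a sample was 1 eye of an animal or both of its eyes combined, which of these holds for each rat is not given in the sources used here, and the labels give no litter or batch.

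MR is a nuclear receptor that binds aldosterone and glucocorticoids and then acts as a transcription factor, with sodium channel subunits and stress response genes among its known targets. The MG are sebaceous glands of the eyelid whose cells fill with lipid, burst and release meibum onto the tear film. UVB is known to provoke inflammation and thickening of the keratinizing epithelium, and a keratinized duct can block the gland.

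Expression was deposited as TPM (a share of each library per transcript length), which keeps no read depth. The methods give a range of mapped reads over the libraries and not the depth of each rat. Of 17251 genes in the table, 12716 had at least 1 TPM in at least 3 of the 8 UVB rats and were tested on log2(TPM + 1), where differences of low genes come out smaller than their ratios. Between 12372 and 12591 genes reached 1 TPM in a UVB rat. The MG markers were abundant in all 8 rats, with Awat2, a wax ester synthase of meibum, at 6495 to 8048 TPM, Elovl4, an elongase of very long fatty acids, at 1916 to 2568 TPM, and Krt14, a keratin of basal cells, at 5528 to 9550 TPM. Calls needed an adjusted p (Benjamini-Hochberg, limma) under 0.05 together with a log2 fold change of 0.5 or more in either direction. Fold changes are given as UVB P1.hMR minus UVB WT throughout.

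The 3 UVB WT rats did not form a group apart from the 5 UVB P1.hMR rats. Over the 12716 genes, UVB WT rat 3 correlated with the P1.hMR rats at 0.989 to 0.993 and with WT rats 1 and 2 at 0.985 and 0.987. WT rats 1 and 2 correlated with the P1.hMR rats at 0.984 to 0.987 and 0.984 to 0.988. These correlations are across genes, which are not independent replicates. On the first principal component of the 8 rats, which held 24.2% of the variance, WT rats 1 and 2 lay at -0.663 and -0.529 and WT rat 3 at 0.276, among the P1.hMR rats at 0.093 to 0.321. The second component, with 20.1%, parted WT rat 1 (-0.452) from WT rat 2 (0.606).

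The median SD over genes was 0.1205 on the log2 scale among the 3 UVB WT rats, 0.108 among the 5 UVB P1.hMR rats, 0.116 among the 4 Control WT rats and 0.109 among the 5 Control P1.hMR rats. The root mean square SD, which gives more weight to the most variable genes, was 0.237 in UVB WT rats and 0.196 to 0.199 in the other 3 groups. Without WT rat 1, 2 or 3, the median SD among the remaining UVB WT rats was 0.0946, 0.0955 and 0.107. By this measure WT rats 1 and 2, which lay together on the first component, differed from each other more than either did from WT rat 3. By correlation the order was the reverse. WT rats 1 and 2 correlated with each other at 0.9874, against 0.9854 and 0.9868 with WT rat 3. Of the genes with the largest SD among UVB WT rats, Lao1, an L-amino acid oxidase, stood at 81.11, 119.5 and 4.33 TPM in WT rats 1, 2 and 3 and at 3.51 to 49.48 TPM in the P1.hMR rats.

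Each UVB rat was also left out in turn and placed between the remaining groups, over the 100 genes with the smallest p in the fit without it, NR3C2 excepted. On this scale, 0 is the mean of the remaining WT rats and 1 that of the remaining P1.hMR rats. The median position was 0.52 for WT rat 1, 0.34 for WT rat 2 and 0.88 for WT rat 3. It was 0.73 to 0.80 for the 5 P1.hMR rats. WT rat 3 lay nearer the P1.hMR mean in 89 of its 100 genes, WT rat 1 in 52, WT rat 2 in 42 and the P1.hMR rats in 70 to 80. The labels place WT rat 3 in the WT group and its NR3C2 was at 0 TPM, as in the other WT rats. This placement was made after the values had been seen and has no test.

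**Figure D1:**
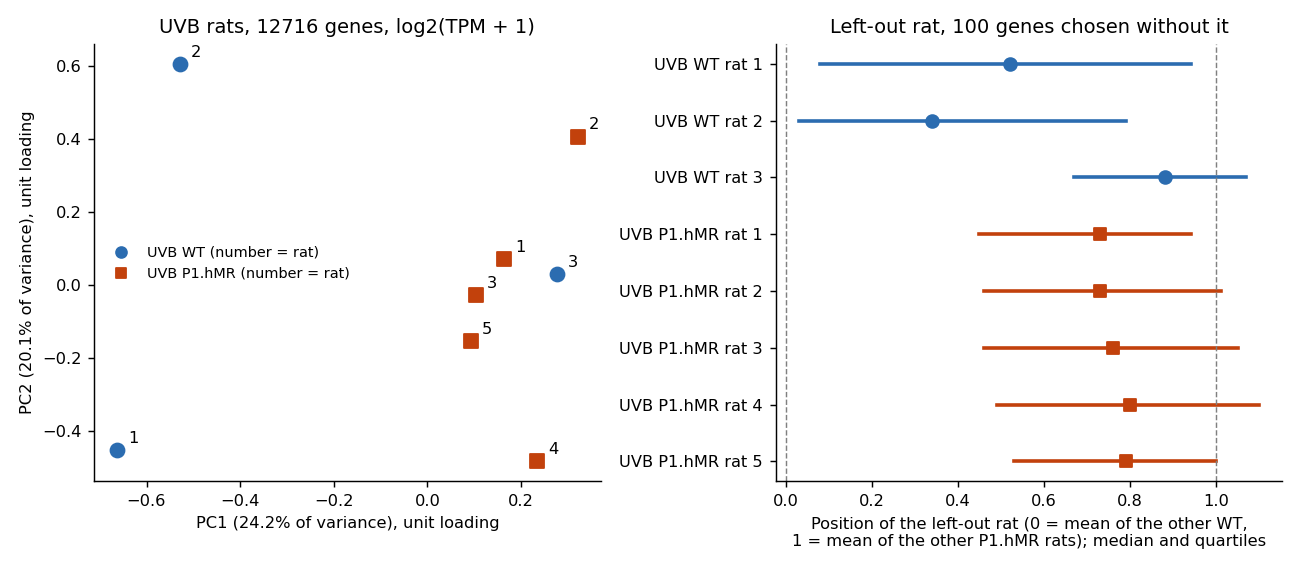
Left, the 8 UVB rats on the first and second principal components of log2(TPM + 1) over 12716 genes (unit loadings, numbers are rats). Right, the median position (point) and quartiles (line) of each rat over 100 genes chosen without it, where 0 is the mean of the other WT rats and 1 that of the other P1.hMR rats, with WT rat 3 at 0.88 and WT rats 1 and 2 at 0.52 and 0.34.

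The transgene had the smallest p of all genes. NR3C2 was listed at 0 TPM in all 3 UVB WT rats and at 6.09, 8.93, 5.54, 6.76 and 5.31 TPM in UVB P1.hMR rats 1 to 5 (log2 fold change 2.89, standard error (SE) 0.13), and it passed the filter only through the P1.hMR rats. Rat Nr3c2, the endogenous MR, was at 7.23, 11.59 and 6.53 TPM in UVB WT rats 1, 2 and 3 and at 8.54, 8.02, 6.4, 6.77 and 6.33 TPM in the P1.hMR rats, with overlapping groups (log2 fold change -0.17, SE 0.22, limma adjusted p = 0.824). Without WT rat 2 this value was 0.05, so its direction rested on that rat. Reads shared by the human and rat genes may have been assigned to either, so both levels are uncertain.

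Of 10 corticosteroid receptor and metabolism genes, NR3C2 was the single one higher and Pgrmc2 the single one lower at an unadjusted p under 0.05. Nr3c1, the glucocorticoid receptor, was at 24.89 to 25.65 TPM in WT and 23.73 to 28.75 TPM in P1.hMR rats. Hsd11b1, which regenerates active glucocorticoid, was high in both groups, at 909.5 to 1183 TPM and 1040 to 1279 TPM. Hsd11b2, which inactivates glucocorticoid and so keeps MR free for aldosterone, was at 0.99 to 1.57 TPM and 0.94 to 1.7 TPM. For Nr3c1 and Hsd11b2 the sign of the small difference turned when single rats were left out. Pgrmc2, a progesterone receptor membrane component, was at 475.7, 416.4 and 393.9 TPM in WT rats and at 335.5, 352.4, 338.9, 334.8 and 321.7 TPM in P1.hMR rats. Every P1.hMR rat lay below every WT rat, and the log2 fold change of -0.34 (SE 0.06, limma adjusted p = 0.0352) passed the p threshold and not that of size. Its adjusted p was 0.0799 after quantile normalization and 0.0933 after median-of-ratios scaling, and 0.371 and 0.204 without UVB WT rat 1 or 2. Without UVB the same difference was -0.25 (SE 0.05, unadjusted p = 0.000166 and adjusted p = 0.641 from limma). The control groups did not overlap either, at 452.2 to 501.8 TPM in WT and 384.1 to 415.8 TPM in P1.hMR rats. The interaction was -0.10 (limma adjusted p = 0.836).

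Among 21 classic MR and glucocorticoid receptor targets, 2 were higher at an unadjusted limma p under 0.05 and none was lower, 1 was higher without WT rat 3, and the list's median log2 fold change was 0.04 against -0.02 over all genes tested. Scnn1a, a subunit of the epithelial sodium channel, was at 12.56, 7.15 and 14.96 TPM in WT and at 13.45, 14.36, 15.25, 17.44 and 18.74 TPM in P1.hMR rats. WT rats 1 and 2 lay below every P1.hMR rat and WT rat 3 among them, and the log2 fold change of 0.47 (SE 0.16, limma adjusted p = 0.327) was 0.19 without WT rat 2. Mt2A, a metallothionein induced by glucocorticoid and metal, was at 366.8, 355.1 and 372.2 TPM in WT rats. It was at 638 and 619.8 TPM in P1.hMR rats 3 and 5 and at 351.2 to 455 TPM in the other 3.

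Besides NR3C2, limma called 1 gene higher and 1 lower in UVB P1.hMR rats, that is, 0.0157% of the genes tested higher with NR3C2 included and 0.00786% lower. Cd8a, the alpha chain of the CD8 co-receptor of cytotoxic T cells, was at 2.06, 1.08 and 2.2 TPM in UVB WT rats and at 3.92, 3.07, 4.32, 4.82 and 4.34 TPM in UVB P1.hMR rats. The groups did not overlap (log2 fold change 0.89, SE 0.14, limma adjusted p = 0.0352). In control rats Cd8a was at 0.18 to 0.36 TPM in WT and 0.3 to 0.64 TPM in P1.hMR rats. The interaction with UVB was 0.77 on the log2 scale and did not pass the adjustment (adjusted p = 0.69 from limma). Its log2 fold change lay between 0.69 and 1.00 with each UVB rat left out in turn, while the call was lost without UVB WT rat 1 or 2, without UVB P1.hMR rat 1, 3, 4 or 5, without Control WT rat 2 or 3, without Control P1.hMR rat 1, 2, 3 or 5, and when only the 8 UVB rats were fitted. The call of Cd8a was also lost with a pseudocount of 0.1 and with a replicate block (limma adjusted p = 0.19 and 0.175). The lower gene, AABR07060145.1, has no name in the table and was at 1.46, 1.19 and 2.94 TPM in WT and 0 to 0.63 TPM in P1.hMR rats (log2 fold change -1.28, SE 0.18, limma adjusted p = 0.0122). It was at 0 TPM in every control rat, and it passed the filter on low values only through the 3 WT rats, so it dropped out without any of them. Its adjusted p was 0.0507 without UVB P1.hMR rat 1 and 0.329 when only the 8 UVB rats were fitted. It was 0.129 with a pseudocount of 0.1 and 0.172 with a replicate block for rats of the same number.

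Most other T cell genes lay below the filter. Of 35 T cell and cytotoxic lymphocyte genes in the table, 10 passed the filter, 8 of them were higher and 2 lower in P1.hMR rats, and Cd8a was the single one at an unadjusted p under 0.05 (2 genes without WT rat 3). The summed level of the list was 63.78 to 80.27 TPM in WT and 73.52 to 87.2 TPM in P1.hMR rats. In such bulk samples, fewer cells of a type and less RNA per cell cannot be told apart.

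At an unadjusted limma p under 0.05, 434 genes (3.41%) were higher and 897 (7.05%) lower in UVB P1.hMR rats. This split depended on the scaling, with 580 higher and 793 lower after quantile normalization and 668 higher and 642 lower after median-of-ratios scaling. In 223 genes (1.75%) every P1.hMR rat lay above every WT rat, and in 533 (4.19%) every P1.hMR rat lay below. The counts of the gene lists are to be read against these shares.

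**Figure D2:**
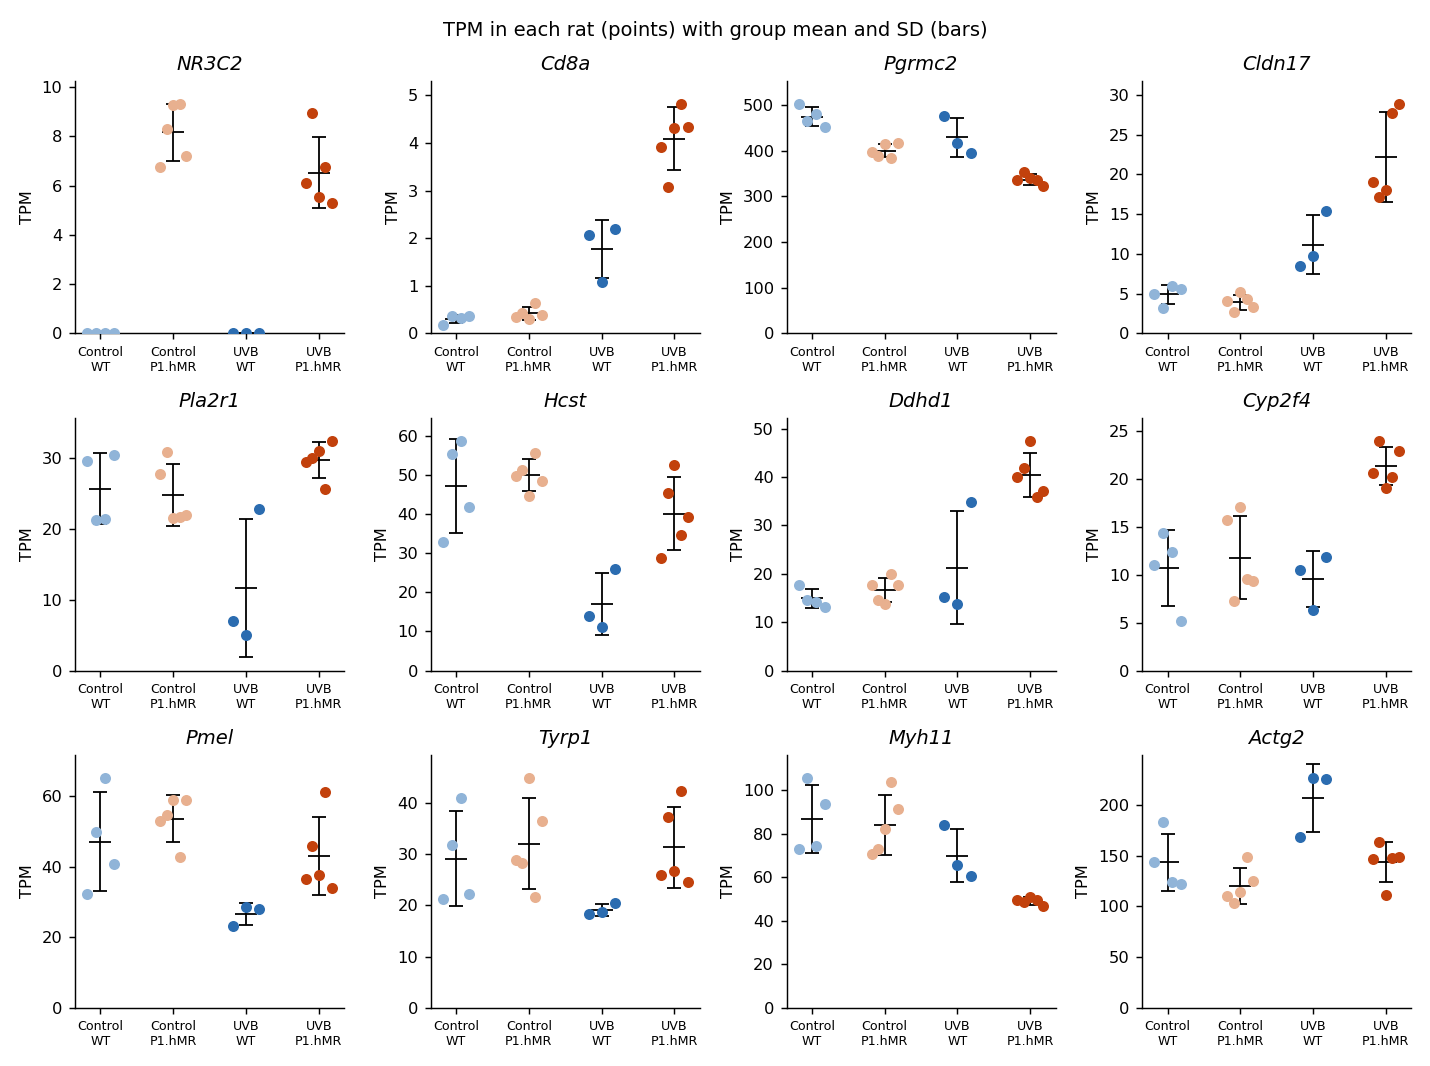
TPM of 12 genes in each rat (points) with the mean and SD of each group (bars), for Control WT (n = 4), Control P1.hMR (n = 5), UVB WT (n = 3) and UVB P1.hMR rats (n = 5). In Pla2r1 and Ddhd1, UVB WT rat 3, at 22.76 and 34.8 TPM, lies next to the P1.hMR rats, while in Tyrp1 it lies with the other WT rats. In Myh11 it lies at 60.52 TPM, between WT rat 2 at 65.47 TPM and the highest P1.hMR rat at 51.09 TPM.

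The genes with the largest positive differences and without overlap between groups had unlike functions, and besides NR3C2 and Cd8a none of them passed the adjustment. Pla2r1, the M-type receptor of secreted phospholipase A2, was at 7, 5.08 and 22.76 TPM in WT rats 1, 2 and 3 and at 25.53 to 32.34 TPM in P1.hMR rats (log2 fold change 1.54, SE 0.30, limma adjusted p = 0.0973). Hcst, the DAP10 adaptor of natural killer and T cell receptors, was at 14.08, 11.18 and 26.04 TPM in WT and at 28.8 to 52.52 TPM in P1.hMR rats (1.24, SE 0.23, limma adjusted p = 0.0925). Ddhd1, a phospholipase that acts on phosphatidic acid, was at 15.27, 13.81 and 34.8 TPM and at 35.88 to 47.44 TPM (1.01, SE 0.21, limma adjusted p = 0.16). In all 3 genes WT rat 3 lay just under the lowest P1.hMR rat and far above WT rats 1 and 2. Their control levels differed in kind, since Pla2r1 averaged 25.6 and 24.7 TPM in Control WT and Control P1.hMR rats near the UVB P1.hMR rats, Hcst was at 32.93 to 58.65 TPM in the 9 control rats, and Ddhd1 averaged 14.9 and 16.7 TPM, near UVB WT rats 1 and 2.

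Cldn17, a claudin of tight junctions, was at 8.48, 9.71 and 15.35 TPM in WT and at 17.16 to 28.85 TPM in P1.hMR rats, against 4.94 and 3.94 TPM on average in the control groups (log2 fold change 0.93, SE 0.22, limma adjusted p = 0.212). Cyp2f4, a cytochrome P450, was at 10.51, 6.29 and 11.9 TPM and at 19.14 to 23.99 TPM (1.12, SE 0.28, limma adjusted p = 0.224). For Cyp2f4 WT rat 3 stayed with the other WT rats. The fibrinogen chain genes Fga and Fgg, whose products form clots, were both low in WT rats. Fgg was at 0.99, 1.24 and 0.86 TPM in WT and at 2.12, 1.94, 11.44, 3.21 and 7.95 TPM in P1.hMR rats, and Fga was at or under 0.26 TPM in WT and at 0.27, 0.99, 6.89, 1.92 and 3.77 TPM in P1.hMR rats. Both were highest in P1.hMR rats 3 and 5 (adjusted p = 0.224 for Fgg and 0.24 for Fga from limma). Fga passed the filter on low values only through P1.hMR rats 3, 4 and 5.

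The genes with the largest negative differences and without overlap were mostly low, and 5 of the 10 carry only a sequence or locus identifier. Wfdc21, a whey acidic protein of innate defence, was the abundant one, at 96.93, 103.7 and 73.46 TPM in WT and at 53.29, 60.06, 52.66, 67.56 and 22.41 TPM in P1.hMR rats (log2 fold change -0.90, SE 0.28, limma adjusted p = 0.283). Its control levels averaged 220.1 TPM in WT and 262.7 TPM in P1.hMR rats, so both UVB groups lay below them. Olr35, an olfactory receptor gene, was at 4.68 to 8.81 TPM in WT and 0.33 to 3.38 TPM in P1.hMR rats. Fxyd7, a regulator of the sodium pump, was at 1.88 to 2.88 TPM and 0.38 to 1.85 TPM, and Zfp385d, a zinc finger gene, at 1.91 to 3.71 TPM and 0.61 to 1.77 TPM. Cyp4f37, a cytochrome P450, was at 6.12, 5.17 and 2.46 TPM in WT and at 2.01 to 2.4 TPM in P1.hMR rats, so WT rat 3 again lay beside the P1.hMR rats. These 5 differences did not pass the adjustment, with adjusted p from limma of 0.22 for Cyp4f37 to 0.379 for Zfp385d.

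Smooth muscle and pericyte genes were the list with the lowest median, and in them UVB WT rat 3 did not lie with the P1.hMR rats. Of 11 genes tested, 10 were lower in UVB P1.hMR rats, 7 (63.6%) at an unadjusted limma p under 0.05 against 7.05% of all genes, and 6 without overlap between groups against 4.19%. None was higher at that p. The median log2 fold change was -0.31 against -0.02 over all genes, and -0.30 and -0.29 after quantile normalization and median-of-ratios scaling. No gene of the list passed the adjustment, with a smallest adjusted p of 0.252. The summed level of the list was 1334, 1286 and 1287 TPM in UVB WT rats 1, 2 and 3 and 1090, 1026, 966.4, 1031 and 1086 TPM in UVB P1.hMR rats 1 to 5, so the groups did not overlap.

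Myh11, the myosin heavy chain of smooth muscle, was at 83.91, 65.47 and 60.52 TPM in WT and at 49.52, 48.45, 51.09, 49.59 and 46.54 TPM in P1.hMR rats (log2 fold change -0.49, SE 0.13, unadjusted p = 0.00208 from limma). Actg2, the enteric smooth muscle actin, was at 168.2, 226.5 and 225.9 TPM in WT and at 147.2, 163.7, 111.5, 148.2 and 148.8 TPM in P1.hMR rats (-0.52, SE 0.15, unadjusted p = 0.00303). In the control groups Myh11 averaged 86.6 and 84.1 TPM and Actg2 143.4 and 120.3 TPM in WT and P1.hMR rats. Every UVB rat of either genotype lay below both control means in Myh11, and every UVB WT rat lay above both in Actg2. Single control rats ran from 70.56 to 105.5 TPM in Myh11 and from 103.7 to 183.1 TPM in Actg2. UVB WT rat 1 lay within both of these ranges. Cnn1, the calponin of contractile cells, was at 84.81 to 98.46 TPM and 50.09 to 74.58 TPM. Acta2 and Tagln, an actin and an actin binding protein shared with myofibroblasts, were at 218.7 to 251.5 TPM and 319.5 to 347.4 TPM in WT rats and at 180.3 to 203.5 TPM and 245.2 to 286.7 TPM in P1.hMR rats. Notch3, a receptor of vascular mural cells, overlapped in P1.hMR rat 1, with 38.92 to 47.81 TPM in WT and 24.12 to 41.95 TPM in P1.hMR rats. For these 6 genes the log2 fold change kept its sign with every rat left out and under every other setting.

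The list's genotype difference was smaller in control rats, with a median of -0.07 and no gene at an unadjusted p under 0.05. The interaction had an unadjusted limma p under 0.05 in 2 of the 11 genes against 7.03% of all genes, Myh11 at -0.45 and Notch3 at -0.42 on the log2 scale, and in none after adjustment. The members known from pericytes rather than contractile cells, Rgs5, Pdgfrb and Cspg4, had log2 fold changes of 0.04, -0.08 and -0.08. Each changed sign when single rats were left out, with Pdgfrb at -0.22 without UVB WT rat 2 and 0.02 without UVB WT rat 1. Notch3, the receptor of mural cells, had -0.49, so the mural cell members did not share 1 direction. Endothelial genes, the neighbours of pericytes in vessels, had 8 of 21 higher, a median of -0.01 (0.0075 after median-of-ratios scaling) and none at an unadjusted p under 0.05. Skeletal muscle genes, from the orbicularis muscle of the eyelid, had none of 20 at that p and were lowest in UVB WT rat 3 and UVB P1.hMR rat 4, at summed levels of 2412 and 2573 TPM against 3619 to 4700 TPM in the other 6 UVB rats. Collagen and matrix genes had 7 of 30 higher, against 43.4% of all genes, and 23 lower. At an unadjusted p under 0.05, 3 (10%) were lower against 7.05% of all genes, and 1 without WT rat 3. These 3 were Acta2, Tagln and Col7a1, the anchoring fibril collagen, and Acta2 and Tagln stand in the smooth muscle list too. Timp3, an inhibitor of matrix proteases, had a log2 fold change of -0.28 (unadjusted p = 0.0133), the single one of 21 protease and inhibitor genes lower at that p, where none was lower and 1 higher without WT rat 3.

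**Figure D3:**
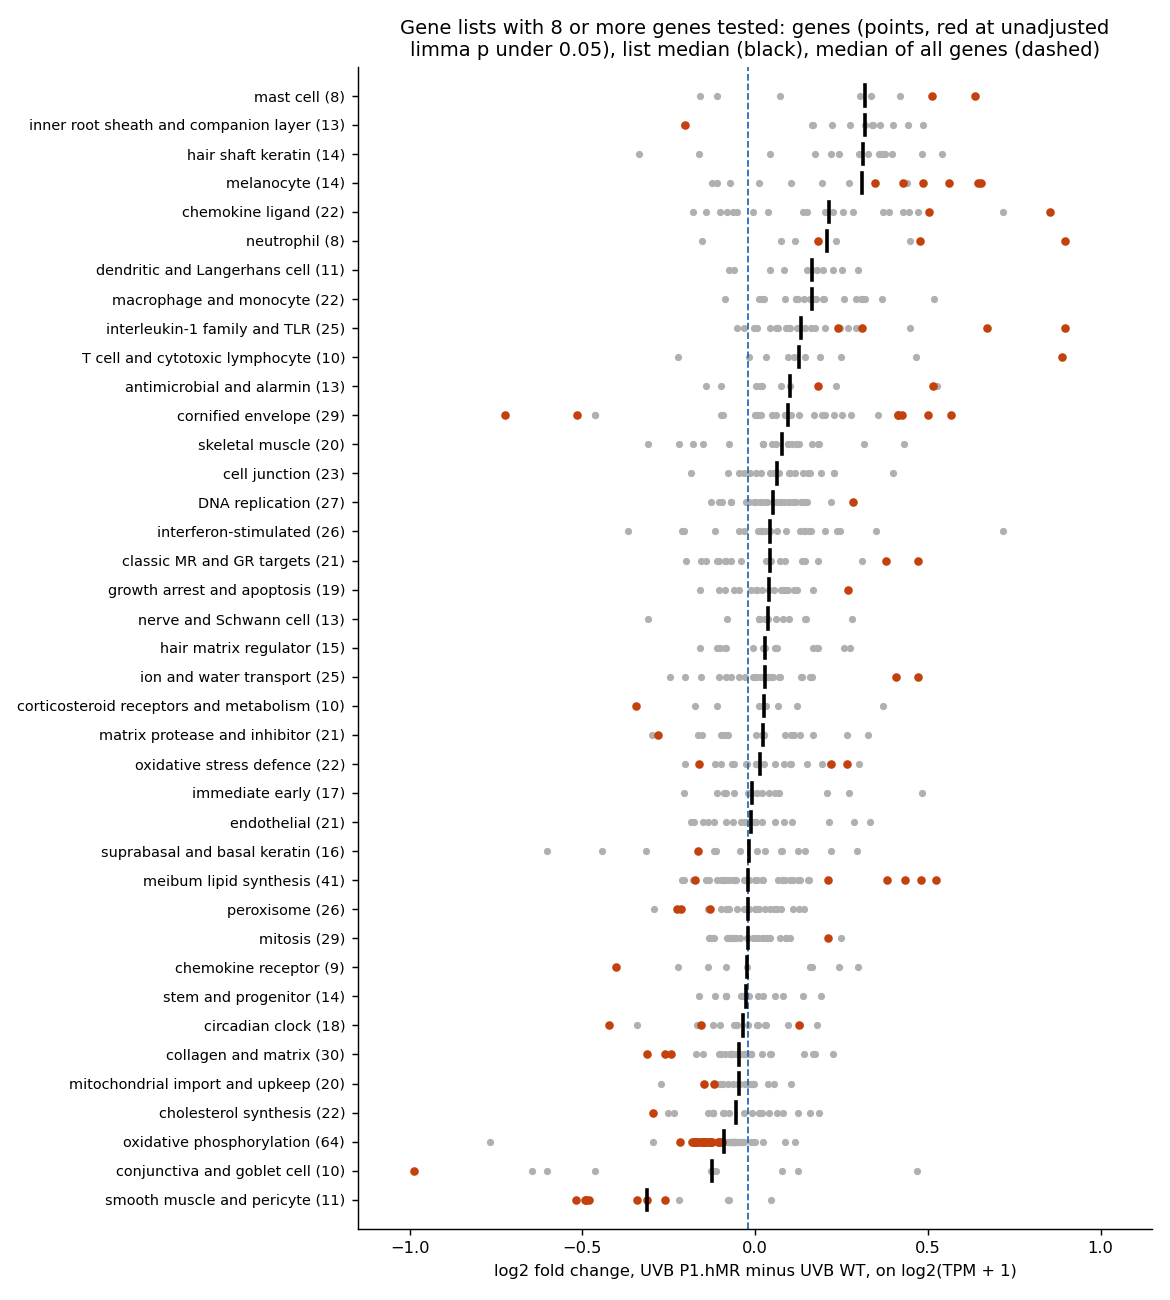
Log2 fold changes (UVB P1.hMR minus UVB WT) of the genes of each list with at least 8 genes tested, with the number tested in parentheses. Points are genes, red at an unadjusted limma p under 0.05, black bars are list medians and the dashed line is the median of all 12716 genes at -0.02, and NR3C2 and Defb3 lie beyond the axis at 2.89 and 1.94. Smooth muscle genes lie lowest with a median of -0.31, and mast cell, hair and melanocyte lists highest. The mast cell list's mean was 0.62 in P1.hMR rat 4, relative to the 8 UVB rats. It was -0.14 to 0.11 in the other P1.hMR rats and -0.33 to -0.02 in WT rats.

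Oxidative phosphorylation genes, which encode the respiratory chain and ATP synthase, were lower by small steps. Of 64 genes tested, 61 were lower in UVB P1.hMR rats, 24 (37.5%) at an unadjusted limma p under 0.05 against 7.05% of all genes, and none was higher at that p. The median log2 fold change was -0.09. After quantile normalization and median-of-ratios scaling it was -0.07 in each, with 20 and 14 genes lower at that p. The summed level was 20460, 20870 and 19130 TPM in UVB WT rats 1, 2 and 3 and 19280, 18560, 19240, 18630 and 19260 TPM in UVB P1.hMR rats. WT rat 3 thus lay inside the P1.hMR range, and without it the median was -0.15 and 39 genes were lower at that p.

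Ndufb6, a subunit of complex I, was at 184.2, 181.3 and 161.4 TPM in WT and at 154.1, 157.9, 157.7, 149.2 and 155.5 TPM in P1.hMR rats (log2 fold change -0.18, SE 0.04, limma adjusted p = 0.22). Uqcrc1, a core subunit of complex III, was at 323.7 to 351.6 TPM and 285.9 to 316.4 TPM, also without overlap. Ndufs8 and Ndufb10 of complex I overlapped by WT rat 3, which at 70.12 and 275 TPM lay under the highest P1.hMR rat of each. In the smaller list of mitochondrial import and upkeep, 17 of 20 genes were lower and 2 (10% against 7.05% of all genes) passed an unadjusted p of 0.05. They were Timm50 and Tomm22, components of the inner and outer membrane import machines. This count was 1 under either of the other scalings and 5 without WT rat 3. Timm50 was at 95.81 to 104.4 TPM in WT and 87.12 to 92.93 TPM in P1.hMR rats. Sod1, a superoxide dismutase, was at 730.6, 824.1 and 668.9 TPM in WT and 631.1 to 678.8 TPM in P1.hMR rats, while Gsta1 and Gsr, enzymes that use and reduce glutathione, had log2 fold changes of 0.27 and 0.22 (unadjusted p = 0.0214 and 0.049), the 3 genes at that p among 22 of oxidative stress defence (4 higher and 3 lower without WT rat 3). In control rats the oxidative phosphorylation list had a median of -0.01 and 1 gene at an unadjusted p under 0.05. The interaction had an unadjusted p under 0.05 in 10 of the 64 genes, against 7.03% of all genes.

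Melanocyte genes leaned higher in UVB P1.hMR rats. Of 14 genes tested, 11 were higher, 6 (42.9%) at an unadjusted limma p under 0.05 against 3.41% of all genes, and 4 without overlap against 1.75%. Of those 6, Slc45a2 and Gpr143 reached 1 TPM in no WT rat and so passed the filter on low values only through P1.hMR rats, and of the 12 genes that reached it in a WT rat 4 were higher at that p. Slc45a2 was also among the 4 genes without overlap. The list's median was 0.31, its smallest adjusted p 0.272, and its summed level 151.7, 138 and 150 TPM in WT and 167.1, 187.4, 170, 231.5 and 162 TPM in P1.hMR rats. Many pigment genes carry in their promoter the M-box, bound by the melanocyte factor Mitf. The core TCATGTG was sought on both strands in the 250 bases before each RefSeq start (assembly GRCr8, which is not the build of the expression table). It was found in 5 of the 13 listed genes that matched by symbol, Tyr, Tyrp1, Dct, Mlana and Gpr143, and in 3.07% of all 33469 windows. A match describes the letters and does not show binding. The windows of 2 of these 5 genes, Tyrp1 and Mlana, are printed 5′ to 3′ on the strand of the gene, with the match in capitals. They lie at chr5:100326875-100327124 on the plus strand for Tyrp1 and at chr1:236882825-236883074 on the plus strand for Mlana, where the match is on the other strand.
Tyrp1: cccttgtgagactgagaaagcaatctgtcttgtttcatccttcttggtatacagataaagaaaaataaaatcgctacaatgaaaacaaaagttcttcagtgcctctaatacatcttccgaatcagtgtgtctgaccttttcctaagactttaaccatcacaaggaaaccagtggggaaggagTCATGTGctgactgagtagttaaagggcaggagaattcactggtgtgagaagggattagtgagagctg
Mlana: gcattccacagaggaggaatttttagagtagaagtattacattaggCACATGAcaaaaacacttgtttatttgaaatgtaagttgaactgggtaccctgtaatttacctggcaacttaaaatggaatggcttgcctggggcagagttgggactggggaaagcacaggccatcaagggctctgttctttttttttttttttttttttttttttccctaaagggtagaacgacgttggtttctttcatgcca

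Tyrp1, an enzyme of melanin synthesis, was at 18.27, 18.63 and 20.39 TPM in UVB WT and at 25.86, 37.18, 26.79, 42.35 and 24.55 TPM in UVB P1.hMR rats (log2 fold change 0.66, SE 0.23, limma adjusted p = 0.342). Mlana, a melanosome protein, was at 6.57, 6.37 and 8.61 TPM and at 9.61, 11.98, 9.85, 15.16 and 9.29 TPM (0.56, SE 0.17, limma adjusted p = 0.272). Pmel, the fibril protein of melanosomes, was at 23.12 to 28.7 TPM and 34.04 to 61.05 TPM, and Slc45a2, a melanosome transporter, at 0.59 to 0.75 TPM and 1 to 1.83 TPM. P1.hMR rats 4 and 2 were the highest in all 4 genes. Mitf itself had a log2 fold change of 0.10 (unadjusted p = 0.297). In control rats the genotypes overlapped in all 4 pigment genes, and Pmel was at 32.25 to 65.07 TPM in Control WT and 42.72 to 58.88 TPM in Control P1.hMR rats, above every UVB WT rat. No melanocyte gene had an unadjusted interaction p under 0.05.

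Hair follicle genes, whose cells lie beside the MG in the lid margin, parted the UVB WT rats from each other. The summed level of 14 hair shaft keratins was 280.1, 206.4 and 534.3 TPM in UVB WT rats 1, 2 and 3 and 308.8 to 473 TPM in UVB P1.hMR rats. The inner root sheath and companion layer genes ran from 473.7 to 1068 TPM in WT and from 618.7 to 942.4 TPM in P1.hMR rats. WT rat 3 was thus above and WT rats 1 and 2 below every P1.hMR rat in the hair shaft list. Both lists had medians of 0.31 and 0.32, and neither had a gene higher at an unadjusted limma p under 0.05. Krt31 and Krt86, structural keratins of the hair cortex, were at 77.12 and 91.09 TPM in WT rat 3 and at 26.39 to 50.72 TPM in WT rats 1 and 2. Without WT rat 3, 7 of the 14 hair shaft keratins and 11 of the 13 inner root sheath genes were higher at that p. Gata3, a transcription factor of the inner root sheath, was lower, at 26.19 to 30.71 TPM in WT and 23.84 to 25.67 TPM in P1.hMR rats. The part of hair follicle content in the melanocyte difference was not tested.

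**Figure D4:**
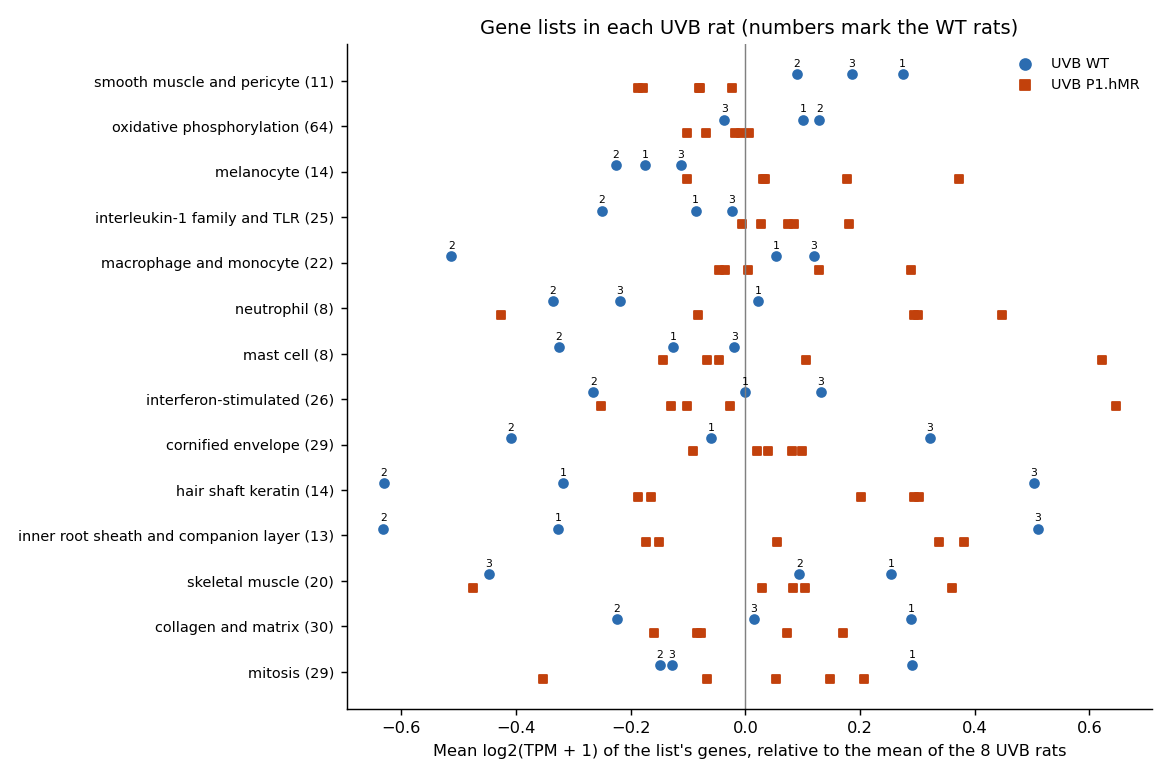
Mean log2(TPM + 1) of the genes of 14 lists in each UVB rat, relative to the mean of the 8 rats, with circles for WT (numbered) and squares for P1.hMR rats and the number of genes in parentheses. All 3 WT rats lie above the 5 P1.hMR rats in smooth muscle genes, while WT rat 3 lies at 0.50 in hair shaft keratins, above every other rat, and WT rat 2 at -0.63.

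Genes of the interleukin-1 family and Toll-like receptor signalling leaned higher in UVB P1.hMR rats. Of 25 genes, 22 were higher, against 43.4% of all genes with a positive difference. Of the 25, 4 (16%) were higher at an unadjusted limma p under 0.05, against 3.41% of all genes, and none was lower. The median was 0.13 and the smallest adjusted p 0.298. Il1b, the cytokine interleukin-1 beta, was at 4.73, 2.29 and 2.29 TPM in WT and at 3.22, 5.11, 10.16, 6.78 and 8.68 TPM in P1.hMR rats (log2 fold change 0.90, SE 0.28, limma adjusted p = 0.298). WT rat 1 lay above P1.hMR rat 1, so the groups overlapped. Il36a, an epidermal cytokine of the same family, was at 0.98, 2.74 and 3.51 TPM and at 1.8 to 6.18 TPM. Casp4, an inflammatory caspase, and Il1rn, the receptor antagonist, had log2 fold changes of 0.31 and 0.24. In control rats the genotype difference was -0.04 for Casp4 and 0.28 for Il1rn on the log2 scale. The difference of Il1rn was thus no smaller without UVB, with an interaction of -0.04, while that of Casp4 was 0.35.

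Of 22 macrophage and monocyte genes, 21 were higher, yet none reached an unadjusted p of 0.05 (1 without WT rat 3) and the median was 0.16 (0.14 in control rats). The list's mean lay at -0.51 in WT rat 2, at 0.05 and 0.12 in WT rats 1 and 3, and at -0.05 to 0.29 in P1.hMR rats, relative to the 8 rats. Lyz2, lysozyme, was at 104.2, 72.17 and 114.3 TPM in WT and at 116.2 to 158.8 TPM in P1.hMR rats, without overlap and with an unadjusted p of 0.238, and Gpnmb, a glycoprotein of macrophages and melanocytes, overlapped at 63.86 to 96.19 TPM and 80.87 to 92.06 TPM. Neutrophil genes had 3 of 8 (37.5%) higher at an unadjusted p under 0.05, against 3.41% of all genes. These were Il1b, Csf3r, the receptor of the neutrophil growth factor, and S100a8, an alarmin of neutrophils and keratinocytes. Il1b stands in the interleukin-1 list and S100a8 in the antimicrobial list too. The neutrophil list's mean lay at 0.02, -0.34 and -0.22 in WT rats 1, 2 and 3. In P1.hMR rats 1 to 5 it lay at -0.08, -0.43, 0.45, 0.30 and 0.29, so the groups overlapped. Csf3r was at 0.51 to 1.71 TPM and 1.14 to 2.55 TPM, and S100a8 at 1441 to 1564 TPM and 1519 to 2030 TPM. In control rats S100a8 was at 1210 to 1499 TPM. Mast cell genes had 2 of 8 (25%) higher at an unadjusted p under 0.05, against 3.41% of all genes (3 without WT rat 3). The summed level of this list was 58.1 to 69.6 TPM in WT rats. It was 105.9 TPM in P1.hMR rat 4 and 58.88 to 70.69 TPM in the other P1.hMR rats, which overlapped the WT rats. Cpa3, a mast cell protease, was at 3.28, 3.37 and 5.6 TPM in WT and at 6, 5.82, 6.5, 10.26 and 5.89 TPM in P1.hMR rats, without overlap, and Tpsb2, a tryptase, overlapped.

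Among 22 chemokine ligands, Ccl17 and Ccl3, which draw T cells and myeloid cells, were higher at an unadjusted p under 0.05 from levels of at most 0.85 and 1.16 TPM in WT rats, with a list median of 0.21. The log2 fold change of Ccl17 was 0.85 under UVB and 0.82 in control rats, with an interaction of 0.03. For Ccl3 these values were 0.50, -0.04 and 0.54. Ccl17 passed the filter on low values only through P1.hMR rats, and without WT rat 3 the list median was 0.0046 and 1 gene was higher. Among 9 chemokine receptors, Ccr10, a skin homing receptor, was lower at 1.55 to 2.1 TPM in P1.hMR against 2.23 to 3.1 TPM in WT rats. Blnk, a B cell adaptor, was the single one of 6 B and plasma cell genes at that p, with a log2 fold change of 0.27. Of 13 antimicrobial genes 3 (23.1%) were higher at that p, against 3.41% of all genes. These were S100a8, S100a7a and Defb3, and 1 gene was higher without WT rat 3. Defb3, a beta-defensin, was at 1.68, 24.96 and 12.76 TPM in WT and at 11.01, 58.18, 30.7, 52.98 and 62.62 TPM in P1.hMR rats, a wide spread in both groups (log2 fold change 1.94, SE 0.90, limma adjusted p = 0.468). S100a7a was at 6.38 to 11.58 TPM and 10.38 to 19.72 TPM. The lists of dendritic and Langerhans cell (11 genes), MHC class II (4 genes) and interferon-stimulated genes (26 genes) had no gene at an unadjusted p under 0.05, with medians of 0.17, 0.24 and 0.04. Without WT rat 3, 3, 2 and 2 of their genes were higher at that p, with medians of 0.22, 0.40 and 0.17. The mean of the interferon-stimulated list was 0.65 in P1.hMR rat 2 and between -0.25 and -0.03 in the other 4 P1.hMR rats.

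Cornified envelope genes, which build the barrier of keratinized epithelium, were mostly higher by group means. Of 29 genes, 22 were higher, against 43.4% of all genes, and the median was 0.10. At an unadjusted limma p under 0.05, 5 (17.2%) were higher against 3.41% of all genes, and 2 (6.9%) lower against 7.05%. Relative to the 8 rats, the list's mean lay at -0.06, -0.41 and 0.32 in WT rats 1, 2 and 3. In P1.hMR rats it lay at -0.09 to 0.10. WT rat 2 alone thus lay below every P1.hMR rat, and WT rat 3 lay above all of them. Cers3, a ceramide synthase of the skin barrier, was at 12.39, 13.36 and 24.56 TPM in WT and at 22.21 to 24.25 TPM in P1.hMR rats (log2 fold change 0.50, SE 0.16, limma adjusted p = 0.286). Abca12, which loads lipid into lamellar bodies, was at 8.35, 6.9 and 12.84 TPM and at 10.36 to 14.61 TPM. In Abca12 WT rats 1 and 2 lay within the control range of 5.78 to 8.83 TPM. For Cers3 the control rats averaged 11.4 and 9.95 TPM in WT and P1.hMR and ran from 8.01 to 12.56 TPM. WT rat 1 lay at the upper end of that range and WT rat 2 just above it. In both genes WT rat 3 lay with the P1.hMR rats. Sprr1a, a cross-linked envelope protein, had a log2 fold change of 0.41, at 1660, 1281 and 2103 TPM in WT and 1724 to 2632 TPM in P1.hMR rats. Lce1f, a late envelope protein, was lower at 5.51 to 17.33 TPM in P1.hMR against 13.2 to 23.87 TPM in WT rats. These belong to multigene families between whose members reads could be split. Without WT rat 3, 12 of the 29 genes were higher and none lower at that p.

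Genes of meibum lipid synthesis showed no common shift. Of 41 genes, 18 were higher and 23 lower, 5 and 1 of them at an unadjusted p under 0.05, and the median of -0.02 equalled that of all genes and was 0.014 and 0.0046 after quantile normalization and median-of-ratios scaling. Elovl7, a fatty acid elongase, was at 22, 17.75 and 39.15 TPM in WT and at 30.83 to 44.4 TPM in P1.hMR rats. Sptlc3, a subunit of the first enzyme of sphingolipid synthesis, was at 3.65, 3.74 and 9.18 TPM and at 6.23 to 8.9 TPM, and Fads2, a desaturase, at 8.77, 11.77 and 19.98 TPM and at 15.15 to 19.76 TPM. In all 3 genes WT rat 3 lay inside or above the P1.hMR range. Fabp4, a fatty acid carrier, was at 29.51 to 37.79 TPM in WT and 38.59 to 63.66 TPM in P1.hMR rats, without overlap. Plin4, a lipid droplet protein of adipocytes, was lower, at 22.66 to 24.58 TPM in WT and 15.69 to 21.58 TPM in P1.hMR rats. Of 7 adipocyte genes, Retn and Fabp4 were higher and Plin4 lower at an unadjusted p under 0.05. Retn, the adipokine resistin, was at 1.86, 1.33 and 10.51 TPM in WT and at 8.38 to 24.98 TPM in P1.hMR rats (log2 fold change 1.73, SE 0.47, limma adjusted p = 0.241).

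Peroxisome genes had 3 of 26 (11.5%) lower at an unadjusted p under 0.05, against 7.05% of all genes. These were Ehhadh, an enzyme of fatty acid oxidation, and Pex14 and Pex16, which import and place peroxisomal proteins. Their log2 fold changes ran from -0.23 to -0.13. The count was 1 of 26 under each of the other scalings, and without WT rat 3 there were 5 lower and 1 higher. Clca2, a regulator of chloride channels in keratinocytes, was at 30.45, 26.48 and 38.55 TPM in WT and 37 to 48.06 TPM in P1.hMR rats, and with Scnn1a it made the 2 of 25 ion and water transport genes higher at that p (3 higher and 1 lower without WT rat 3). Krt79, a keratin of the sebaceous duct, was at 1697 to 1728 TPM in WT and 1385 to 1628 TPM in P1.hMR rats.

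Of 29 mitosis genes, 12 were higher and 17 lower, and Aurka, a mitotic kinase, was the single one at an unadjusted p under 0.05, at 19.35 to 21.21 TPM in WT and 21.78 to 25.27 TPM in P1.hMR rats. Of 27 DNA replication genes, 19 were higher and 8 lower against 43.4% of all genes higher, with a median of 0.05, and 1 reached that p, Mcm10, an initiation factor (log2 fold change 0.28), where none did without WT rat 3. Of 19 growth arrest and apoptosis genes, Ccng1, a cyclin induced by DNA damage, did so, at 53.49, 55.15 and 56.89 TPM in WT and at 63.73, 78.52, 70.93, 58.16 and 63.78 TPM in P1.hMR rats (0.27, SE 0.09, limma adjusted p = 0.299), and 2 genes did without WT rat 3. Of 18 clock genes Dbp and Bhlhe40, output and repressor genes, were lower and Clock higher, with Dbp at 67.51, 66.21 and 49.05 TPM in WT and 39.23 to 55.14 TPM in P1.hMR rats. Fcgbp, a mucus protein of goblet cells, was at 19.18, 13.31 and 5.63 TPM in WT and 2.07 to 13.35 TPM in P1.hMR rats, the single one of 10 conjunctiva and goblet cell genes at an unadjusted p under 0.05 (2 without WT rat 3). The lists of cell junction, stem and progenitor, hair matrix, nerve and Schwann cell, immediate early, lacrimal gland and erythrocyte genes had none. Without WT rat 3, the cell junction list had 2 genes higher, the hair matrix list 2 higher and 1 lower, and the stem and progenitor and erythrocyte lists 1 higher each.

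Without UVB WT rat 3 the comparison took another size, with 37 genes (0.292% of 12653) called higher and 17 (0.134%) lower. NR3C2 aside, 53 genes were called, 36 higher and 17 lower in P1.hMR rats than in WT rats 1 and 2. WT rat 3, which did not enter this fit, lay nearer the P1.hMR mean in 47 of the 53 genes and within the range of the 5 P1.hMR rats in 27, with a median position of 0.9. The 6 exceptions included Cd8a at 0.34 and Tmprss4 at 0.05. Of the 53 genes, none but Cd8a was called with WT rat 3 in the fit, and leaving out that rat was chosen after seeing the data. Its position in these genes is thus not independent of how they were chosen. Genes of these 53 outside the rule for names were named after their values had been seen.

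The 53 genes were of more than 1 kind when set beside the 9 control rats. In 33 genes all P1.hMR rats lay beyond the range of the control rats, in 27 WT rats 1 and 2 did, in 11 both did, and in 4 neither did. Slc36a2, an amino acid transporter, was at 4.78, 6.14 and 1.31 TPM in UVB WT rats 1, 2 and 3, at 1.43 to 1.92 TPM in UVB P1.hMR rats and at 2.83 to 4.85 TPM in control rats. Ephx2, a soluble epoxide hydrolase, was at 53.75, 48.54 and 22.27 TPM and at 21.26 to 23.2 TPM, against 29.72 to 67.45 TPM in control rats. Gnal, a G protein alpha subunit, was at 19.63, 19.75 and 7.34 TPM and at 6.4 to 9.92 TPM, against 13.86 to 33.47 TPM. In these genes the P1.hMR rats and WT rat 3 lay below the controls.

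In 16 of the 53 genes UVB WT rats 1 and 2 both lay beyond all the other 15 rats of the series. Pla2r1 and Hcst were among them, and Rgs2, a regulator of G protein signalling, was at 34.13 and 28.36 TPM in these rats, at 14.95 TPM in WT rat 3, at 14.67 to 21.07 TPM in UVB P1.hMR and at 16.26 to 27.57 TPM in control rats. Over all 12716 genes, WT rats 1 and 2 were both above the other 15 rats in 372 and both below in 256. For WT rats 1 and 3 these counts were 120 and 28, and for WT rats 2 and 3 they were 125 and 110. Plek, a leukocyte signalling protein, was of the other kind, at 3.68, 4.15 and 8.54 TPM in UVB WT rats, 8.13 to 17.49 TPM in UVB P1.hMR rats and 1.24 to 2.77 TPM in control rats. S100a1, a calcium sensor of muscle, was at 85.48, 42.86 and 27.23 TPM in WT and 19.13 to 36.32 TPM in P1.hMR rats, all below the control range of 105.55 to 182.5 TPM. Dnase1l3, a nuclease of macrophages, was at 17.62, 14.9 and 36.17 TPM in WT and 23.09 to 29.99 TPM in P1.hMR rats, all above the control range of 8.1 to 13.34 TPM.

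**Figure D5:**
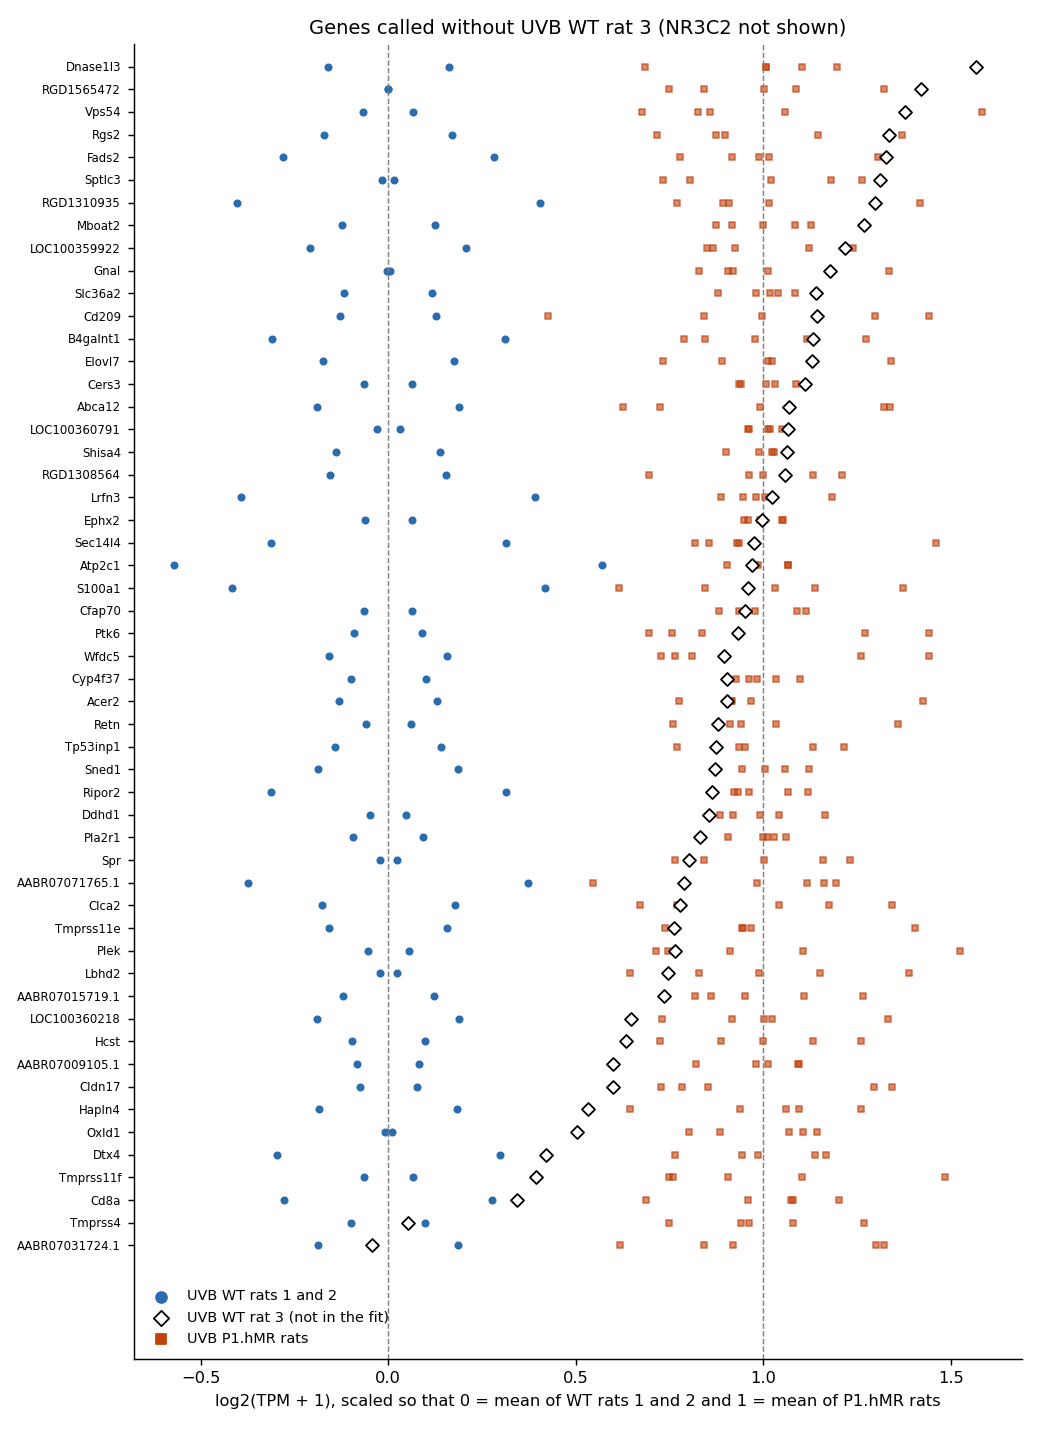
The 53 genes called without UVB WT rat 3 other than NR3C2, on log2(TPM + 1) scaled so that 0 is the mean of WT rats 1 and 2 (circles) and 1 the mean of the P1.hMR rats (squares). WT rat 3 (diamonds), which did not enter the fit, has a median position of 0.9, and Cd8a at 0.34 and Tmprss4 at 0.05 are among the 6 genes where it lies nearer WT rats 1 and 2.

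Tmprss4, a membrane serine protease known to cleave the epithelial sodium channel, was called without WT rat 3 although that rat lay with WT rats 1 and 2. It was at 30.47, 27.63 and 29.78 TPM in UVB WT and at 46.06, 46.54, 49.27, 41.89 and 54.02 TPM in UVB P1.hMR rats, without overlap. Its log2 fold change over all 8 rats was 0.68 (SE 0.12, limma adjusted p = 0.0871), and it was called when Control WT rat 1 or 4 was left out. Control WT rats at 38.41 to 66.99 TPM and Control P1.hMR rats at 55.71 to 67.22 TPM lay above the UVB WT rats.

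Whether the genotype difference under UVB differed from that without it was tested as the interaction. No gene passed the adjustment in limma (smallest adjusted p = 0.292), and 894 genes (7.03%) had an unadjusted p under 0.05. The genotype comparison in control rats had 510 genes (4.01%) at an unadjusted p under 0.05. Without UVB WT rat 3, the interaction passed the adjustment in 10 genes, among them Pla2r1 (2.18 on the log2 scale, adjusted p = 0.000187), Ddhd1 (1.26, adjusted p = 0.00393), Cers3 (0.98, adjusted p = 0.00387), Sptlc3 (0.94, adjusted p = 0.0231) and Slc36a2 (-1.465, adjusted p = 0.00393). In this fit the UVB WT group held 2 rats.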

How the data were processed

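RNA was measured in the dissected MG of 17 female rats. According to the methods, the authors aligned reads to rn7 with STAR and quantified them with RSEM. The submitters' processing notes name FastQC, Trimmomatic, DRAGEN, Picard and rn7, without versions. The authors deposited TPM values for 17251 genes. TPM is a share, so a few abundant genes can shift all others, and the UVB columns summed to 808855 to 840817 TPM. TPM are no counts, so limma (3.58.1, R 4.3.3) was fitted with a variance trend to log2(TPM + 1) over 4 group means of all 17 rats, for the 12716 genes that reached 1 TPM in 3 or more of the 8 UVB rats. The difference under UVB and its interaction with the control difference were tested, two-sided, with Benjamini-Hochberg adjustment, and the fit was first tested on simulated data. Groups came from the labels, and no column was left out.

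The genes named were the receptors, called genes, the 10 largest positive and 10 largest negative differences without overlap, up to 4 members of each list with the smallest unadjusted p (or the 2 most abundant) and the 5 genes with the largest SD among UVB WT rats. Those with only an identifier were mostly left unnamed, and 1 gene that met the rule is not reported here. Rgs5, Pdgfrb, Cspg4, Mitf, Acta2 and Tagln in the smooth muscle list, and the genes named from the fit without UVB WT rat 3 were chosen after their values had been seen. The members and the 44 gene lists were chosen with earlier results of these data known. Alternatives were other pseudocounts, filters, scalings, thresholds and models and leaving out each rat. The counts without UVB WT rat 3, the left-out positions and the comparison of those genes with control rats were chosen after seeing the data. Promoter windows came from RefSeq (GRCr8). Python 3.11.15, pandas 2.3.3, numpy 2.4.6 and matplotlib 3.10.9 were used.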

Additional observations from a re-analysis of the deposited data

Results flagged for a closer look

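A UVB P1.hMR rat stood apart from the other 4 of its group by Dixon's criterion in 7 of the 141 values examined, for named genes and list means, where chance gives about 5%. AABR07060145.1 was at 0.63 TPM in P1.hMR rat 5 and at 0 to 0.18 TPM in the other 4. Cpa3, the mast cell protease, was at 10.26 TPM in P1.hMR rat 4 against 5.82 to 6.5 TPM, and Blnk, the B cell adaptor, was at 14.26 TPM in the same rat against 11.26 to 11.88 TPM. Timm50 was at 87.12 TPM and Pdgfrb at 14.23 TPM in P1.hMR rat 2, both the lowest of their group. In the same rat the mean of the interferon-stimulated list was the highest, at 0.646 on the log2 scale relative to the 8 UVB rats, and the mean of the nerve and Schwann cell list the lowest, at -0.054. The 3 UVB WT rats were too few for this criterion. Over all genes, no interaction passed the adjustment in limma.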

How the results depend on the processing

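TPM do not give the depth of each rat, 3 UVB WT rats limit the comparison, and 1 of them, rat 3, decided how many genes were called. Of 2 genes called higher, 1 remained with a pseudocount of 0.1, with only the 8 UVB rats, with a replicate block or with a log2 threshold of 1, and 0 with a mean of at least 5 TPM, a filter that removed NR3C2, Cd8a and AABR07060145.1. The 1 lower call became 0 with that pseudocount, that filter or only the 8 UVB rats, and 2 with no fold threshold. With the replicate block 1 gene was called lower, AABR07033236.1 in place of AABR07060145.1 (limma adjusted p = 0.172 for the latter). Leaving out each rat gave 1 to 37 higher calls, 0 to 17 lower calls and 0 to 10 genes with an interaction, the largest counts without UVB WT rat 3. With the replicate block, 1 gene had an interaction. Rats with the same number had correlated deviations of -0.148 to 0.072 under UVB and 0.031 to 0.269 in control rats, so not every pair passed 0.1, and the labels do not pair them. The median SD among UVB WT rats was 0.105 to 0.132 under the other settings and 0.0946 to 0.107 without 1 rat. Of 97 named genes, 90 kept their direction under every alternative. With single rats left out, Nr3c2 ran from -0.3183 to 0.0525, Nr3c1 from -0.0334 to 0.0332, Hsd11b2 from -0.0259 to 0.16, Krt86 from -0.24 to 0.63, Cspg4 from -0.18 to 0.0037, Pdgfrb from -0.22 to 0.023 and Rgs5 from -0.11 to 0.13 on the log2 scale, and Nr3c1 was -0.0096 with array weights. The causes were not tested.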
